A study of Rattus norvegicus with 24 samples.

Results

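DNA methylation at CpG islands was compared between 7 spontaneous mammary carcinomas (Spontaneous) and 3 normal mammary glands (NMG) of female Sprague-Dawley rats, which are 10 of the 24 arrays of a series that also holds 14 carcinomas of irradiated rats. The arrays were taken by their sample labels, with no measured value in that rule. None of the 10 tissues came from an irradiated rat, and the rats had received a standard diet followed by a diet rich in corn oil. Each gland and each carcinoma came from a different rat, and tumors 4, 5 and 6 came from rats that were older at autopsy than the donors of the glands, so that age and tissue cannot be told apart for them. The other carcinomas arose after 2 Gy of whole-body gamma rays at 3 weeks (IR-3W, n = 7) or 7 weeks of age (IR-7W, n = 7).

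CpG islands are short stretches rich in CG dinucleotides that often overlap the promoters of genes. Most islands are free of methylation in normal tissue, and dense methylation of an island is associated with a silent promoter. In carcinomas a subset of islands gains methylation, while much of the genome outside the islands tends to lose it. Here the DNA of each tissue was fragmented, the methylated fragments were captured with a methyl-CpG binding protein and labeled with Cy5, and uncaptured DNA of the same tissue was labeled with Cy3. The log2 ratio of Cy5 over Cy3 thus rises with the methylation around a probe, and each array was centered on its own median. A bulk tissue gives 1 ratio, so that more methylated cells and more methylation in each cell cannot be told apart.

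Of 93024 non-control probes, 89403 lay on the autosomes. Probes no more than 1000 bp from their neighbor were joined, and the 12724 runs of at least 3 autosomal probes are called islands below. An island held a median of 6 probes over 671 bp. Its value on an array is the mean log2 ratio of its probes. Positions are those of the rn4 assembly, as the files give them. Gene annotation and genome sequence of that assembly were not used here, so islands are given by position and no sequence is shown.

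On each array 89.6% to 97.7% of the probes had a Cy3 signal well above background. For Cy5 the share was 86.3% to 95.5% in the glands and 72.4% to 90.8% in the carcinomas. With 3 glands and 7 carcinomas, the number of arrays limits precision. Before centering, the median log2 ratio of an array lay between -0.05 and 0.06 in the glands and between -0.27 and -0.17 in the carcinomas. Centering removes this gap, so that each difference below is relative to the median probe of the array. The glands were scanned on 1 day, together with tumor 3 and no other carcinoma, so that tissue and scan day cannot be told apart for the other 6 tumors. NMG 1 had a raised signal along chromosome 4 in uncaptured DNA (a median of 0.14 log2 units over the 24 arrays' median) and in captured DNA (0.16). Tumor 5 had 0.11 in uncaptured DNA. Over the autosomal probes, NMG 1 correlated at 0.911 and 0.953 with NMG 2 and NMG 3 and at 0.809 to 0.877 with the carcinomas (Pearson's r, across probes, which are not replicates). NMG 2 and NMG 3 correlated less with each carcinoma, at 0.738 to 0.814 and 0.762 to 0.858. Without NMG 1, 1903 islands passed the test described below, where 2706 did with it.

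The islands of each array fell into a large low mode and a small high mode. The low mode lay at -0.20, -0.15 and -0.21 in NMG 1 to 3 and between -0.36 and -0.22 in the carcinomas. The high mode lay at 3.67, 3.02 and 3.95 in the glands, and between 2.48 in tumor 7 and 4.08 in tumor 6. How far the high mode lies from the low one differed between arrays of the same tissue, so the midpoint of the modes of each array was used to tell islands in the low mode from islands in the high mode.

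**Figure D1:**
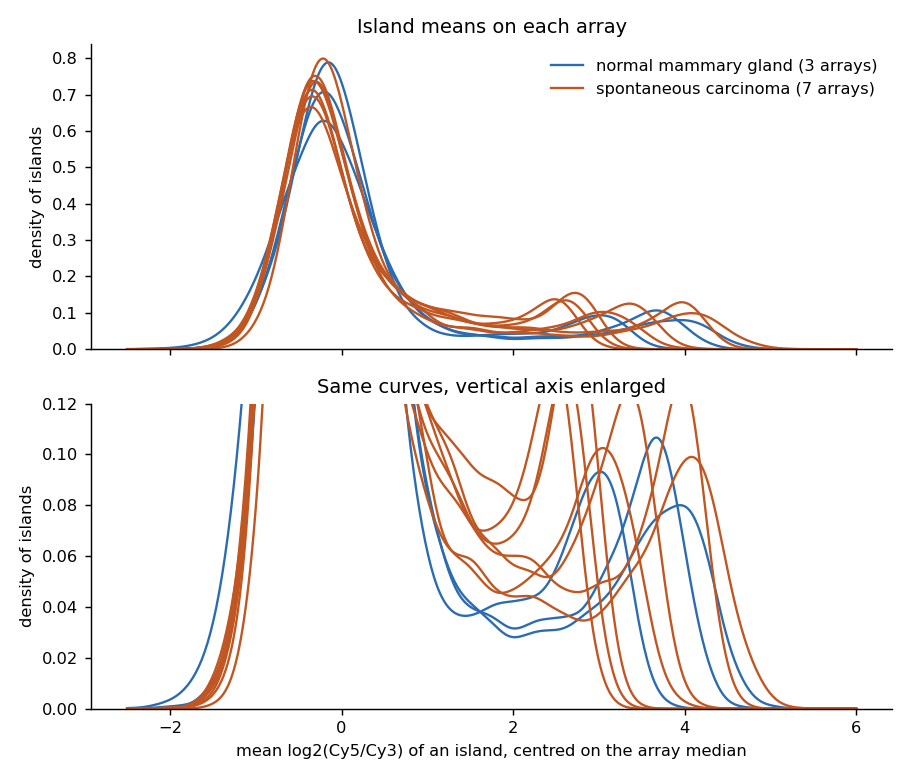
Density of the mean log2(Cy5/Cy3) of 12724 islands on each array, as 1 curve per normal mammary gland (blue, 3 arrays) or spontaneous carcinoma (orange, 7 arrays), with the vertical axis enlarged in the lower panel. Each array has a low mode between -0.36 and -0.15 and a high mode between 2.48 and 4.08, and the place of the high mode varies within both tissues.

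More islands lay past this midpoint in the carcinomas. The share was 14.1%, 12.3% and 13.4% in NMG 1 to 3, and the carcinomas ranged from 15.2% in tumor 3 through a median of 17.1% to 20.7% in tumor 5. All 7 carcinomas lay above all 3 glands, and tumor 3, the one scanned on the day of the glands, was nearest to them. The means were 17.5% ± 1.76 (SD, n = 7) and 13.3% ± 0.95 (SD, n = 3), a difference of 4.22 percentage points (two-sided exact permutation test over 120 choices of arrays, p = 0.00833, the smallest this design allows). With the point at 40% or 60% of the distance between the modes the difference was 5.76 or 2.91 points (exact permutation p = 0.00833 and 0.0167).

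Of the 10895 islands in the low mode of all 3 glands, 1102 (10.1%) were past the midpoint in at least 1 carcinoma, and 90 were past it in all 7. Of the 1547 islands in the high mode of all 3 glands, 81 (5.24%) were under it in at least 1 carcinoma, and 4 were under it in all 7. Islands that crossed therefore numbered more on the side of gain, and most of them crossed in a few carcinomas only: 319 of the 1102 did so in a single tumor.

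Single islands were tested with limma. At a Benjamini-Hochberg adjusted p under 0.05, 2706 of 12724 islands differed between carcinomas and glands (21.3% of the islands tested). Of these, 1222 were higher in carcinomas (9.6% of the islands tested) and 1484 were lower (11.7%). Of single probes, 18783 of 89403 differed (21% of the probes tested), 8912 of them higher (9.97%) and 9871 lower (11%). Of the islands called higher, 1212 (99.2%) lay in the low mode of all 3 glands, and of those called lower, 1445 (97.4%) did, against 85.6% of all islands. The sizes differed between the directions. The median difference was 0.79 log2 units among islands called higher and -0.48 among those called lower, against -0.02 over all islands. A difference beyond 1 log2 unit was found for 406 islands called higher and for 43 called lower. These sizes are those of the processed signals and depended on the background correction. With normexp background correction, the 12 largest rises named below were 0.73 to 1.07, and the largest falls (Loss 1, 2 and 3) were -0.97, -1.45 and -1.20. The islands called higher had a median level of -0.28 in glands and 0.55 in carcinomas, which is still under the midpoint of the modes. Those called lower had medians of 0.14 and -0.35.

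**Figure D2:**
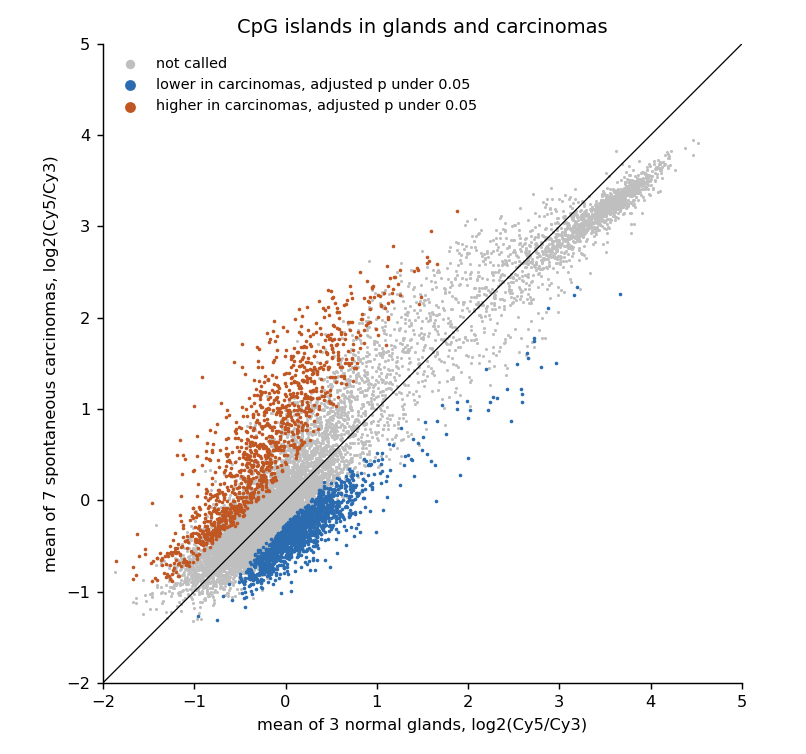
Mean log2(Cy5/Cy3) of each of 12724 islands in the 3 normal glands (horizontal) and the 7 spontaneous carcinomas (vertical), with the line of equality. Islands called higher in carcinomas (orange, 1222) reach up to 2.26 log2 units above the line, while nearly all islands called lower (blue, 1484) form a band close below it at gland levels under 1.

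The balance of the directions depended on the centering. Without centering 600 islands were called higher and 3605 lower, and centered on the low mode of each array's probes 2060 were called higher and 282 lower. These shift the median difference over all islands to -0.23 and 0.19. Called in the same direction under all 3 centerings were 600 islands higher and 282 lower. The count of calls also rested on the glands: 580 islands were called without NMG 3 (240 higher, 340 lower) and 965 without NMG 2 (369 higher, 596 lower). With tumors 1, 2, 3 and 7 only, 1466 were called.

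With scan day as a block, which leaves tumor 3 against the 3 glands, 0 islands passed limma's adjusted threshold (195 probes passed). Tumor 3 was therefore set against the glands at islands called from the other 6 carcinomas, which share the glands with it. At 1224 islands called higher without tumor 3, its median difference from the gland mean was 0.54, where the other 6 carcinomas had 0.84. At 1561 called lower, it was -0.37, where the others had -0.49. Since the glands that chose these islands also enter the values of tumor 3, the values are descriptions and no independent support.

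The glands and the carcinomas also differed in how the ratio runs along an island. In islands of 6 or more probes (7166 islands), the central 1 or 2 probes exceeded the first and last probe by 0.46, 0.60 and 0.70 log2 units in NMG 1 to 3. In the carcinomas this excess ranged from 0.11 in tumor 7 through a median of 0.16 to 0.24 in tumors 1 and 6, and tumor 3, of the scan day of the glands, had 0.13. No carcinoma overlapped the glands, and the difference was -0.42 (exact permutation p = 0.00833, adjusted over 9 such tests p = 0.0375). The contrast was seen in islands of the low mode (0.61 ± 0.13, SD, n = 3, against 0.15 ± 0.06, SD, n = 7). In islands of the high mode it was 0.41 ± 0.09 and 0.30 ± 0.07 (exact permutation p = 0.0917). The captured DNA in Cy5 carried it, with an excess of 1.32 ± 0.27 in glands and 0.84 ± 0.16 in carcinomas (exact permutation p = 0.0167, adjusted p = 0.0375), whereas uncaptured DNA in Cy3 had 0.73 ± 0.24 and 0.67 ± 0.16 (exact permutation p = 0.625). The 14 irradiated carcinomas lay between 0.05 and 0.44.

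**Figure D3:**
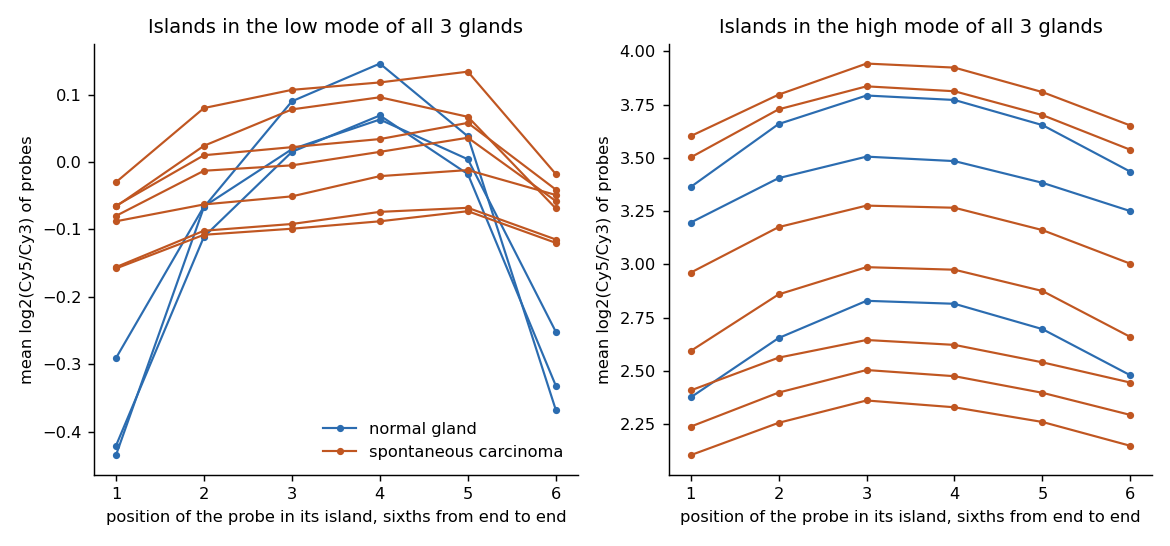
Mean log2(Cy5/Cy3) of the probes in each sixth of an island from end to end, for islands of 6 or more probes in the low mode (left, 6320 islands) or the high mode (right, 725 islands) of all 3 glands, as 1 line per array. In the low mode the gland lines (blue) fall to -0.38 on average in the first sixth and -0.32 in the last, and the carcinoma lines (orange) fall to -0.09 and -0.07, and in the high mode the lines of both tissues are arched.

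The calls were also described by place within the island. Where an island of 6 or more probes was called lower, its outermost probes averaged -0.31 in glands and -0.45 in carcinomas, and its central probes 0.54 and -0.19. Over all 7166 islands the outermost probes averaged -0.10 in glands and 0.18 in carcinomas, and the central ones 0.48 and 0.35. Where it was called higher, the outermost probes averaged -0.44 and 0.52, and the central probes -0.09 and 0.68. Islands were then tested again on these probes alone, which are part of the mean that chose them. Over all 7166 islands, 1709 were called lower on the central probes and 79 on the outermost, and 576 and 990 were called higher. Of 857 such islands called lower, 635 were called lower on the central probes, 64 on the outermost and 49 (5.72%) on both, and 10 were called higher on the outermost. Of 741 called higher, 376 were called on the central probes, 481 on the outermost and 259 (35%) on both. Over all 7166 islands, 0.684% were called lower and 3.84% higher on both sets of probes. The part of the shape in the calls was not tested.

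The islands that rose most were ranked among those called higher, with all 7 carcinomas above all 3 glands (1213 islands had such a separation upward, 9.53% of all, and 1679 downward, 13.2%) and with most probes above background. They are named Gain 1 to Gain 12, and their counterparts Loss 1 to Loss 12. Gain 1 (chromosome 2, 180123160 to 180123517, 4 probes) had -1.05, -0.99 and -0.70 in NMG 1 to 3, and in the carcinomas a low of -0.63 in tumor 3, a median of 1.57 and a high of 3.06 in tumor 6. It rose by 2.26 ± 0.66 log2 units (SE; limma adjusted p = 0.0367), but 2 of its 4 probes were called, tumor 3 exceeded the highest gland by little, and the carcinomas spread over most of the range between the modes. The call was lost without any 1 of the 3 glands (adjusted p = 0.0973, 0.112 and 0.106 without NMG 1, 2 and 3) and without tumor 1, 2 or 5 (0.0554, 0.0652 and 0.0612), and against tumor 3 alone, with scan day as a block, the difference was 0.28.

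Gain 2 (chromosome 1, 209181706 to 209183256, 8 probes) was even among the glands at -0.52, -0.47 and -0.45, and ran from 0.55 in tumor 4 through a median of 1.75 to 2.78 in tumor 6. The difference was 2.19 ± 0.45 (SE; limma adjusted p = 0.0103). Its probe A_45_P00973169 (chromosome 1, 209182098 to 209182150) had the largest difference among those probes of the 12 gains that were well above background (in Cy3 on all 10 arrays, in Cy5 on an array of each group), at 2.75 ± 0.51 (SE; limma adjusted p = 0.00617), with -0.97, -1.03 and -0.72 in the glands and 0.58 to 3.32 in the carcinomas (median 1.48). Every carcinoma was separated from every gland at this probe by more than 1 log2 unit. A probe of Gain 4 differed by 2.76 but did not meet this limit.

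Gain 4, Gain 7 and Gain 8 were the widest sampled of the 12, with 12, 14 and 12 probes. Gain 4 (chromosome 5, 120330924 to 120331903) had -0.39, -0.74 and -0.57 in the glands and a low of 0.88, a median of 1.42 and a high of 2.52 in the carcinomas. It rose by 2.08 ± 0.30 (SE; limma adjusted p = 0.00516), with 11 of 12 probes called. Gain 7 (chromosome 3, 43654438 to 43655511) had -0.06, -0.33 and -0.54 in the glands, and 1.26 to 2.52 in the carcinomas with a median of 1.53. It rose by 2.00 ± 0.25 (SE; limma adjusted p = 0.00447). Its carcinomas were the most alike of those at the 12 gains (SD 0.44). Its probes differed by 1.40 to 2.71, and 12 of 14 were called. At the other 2 a carcinoma overlapped the glands.

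Gain 8 (chromosome 4, 80545812 to 80546948) had 0.14, -0.41 and -0.13 in the glands, and from 1.01 in tumor 3 to 3.09 in tumor 6 in the carcinomas, with a median of 1.66. It rose by 1.99 ± 0.36 (SE; limma adjusted p = 0.00762), and tumor 3, with scan day as a block, by 1.14. Gain 6 (chromosome 6, 146168488 to 146169197, 9 probes) began lowest, at -0.77, -1.07 and -1.17 in the glands, and reached 0.37 to 2.03 in the carcinomas with a median of 0.95 (difference 2.03 ± 0.29, SE; limma adjusted p = 0.00516). All 9 probes of this island were called.

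The other 6 gains had 3 to 5 probes each. They were Gain 3 (chromosome 11, 82448371 to 82448768), Gain 5 (chromosome 6, 138153537 to 138153930), Gain 9 (chromosome 5, 146568542 to 146568977), Gain 10 (chromosome 20, 27662394 to 27662822), Gain 11 (chromosome 1, 185857604 to 185858062) and Gain 12 (chromosome 20, 2745088 to 2745442). Their gland means lay between -0.48 and 0.15 and their carcinoma means between 1.46 and 2.10, and the differences ran from 1.93 to 2.09 (limma adjusted p from 0.00517 to 0.0198). Every probe of these islands was called. Without NMG 3, Gain 3, 5, 9, 10 and 11 lost their call (limma adjusted p = 0.0844, 0.0573, 0.0958, 0.0516 and 0.08), as did Gain 2 (0.052), Loss 1 (0.051) and Loss 9 (0.0597). Without NMG 2, Gain 3, 9 and 11 did (0.0681, 0.0626 and 0.0749), and with normexp background correction the 12 gains were 0.73 to 1.07, with the calls of Gain 1, 5, 9, 10 and 11 lost. On the scale of the modes, where the low mode of an array is 0% and its high mode 100%, the 12 gains averaged from -22.2% to 9.6% in the glands and from 38.1% to 67.1% in the carcinomas. The mean of the carcinomas thus stayed short of the high mode at each of them.

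**Figure D4:**
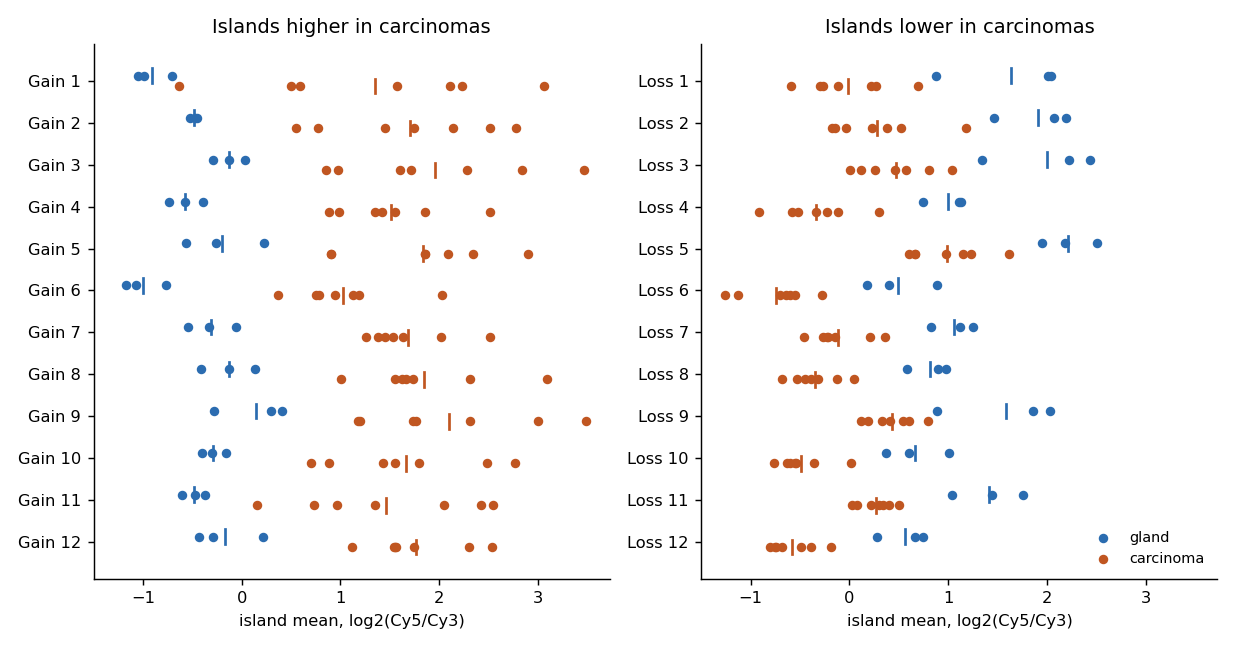
Mean log2(Cy5/Cy3) of the 12 islands with the largest rise (left) and the 12 with the largest fall (right), as 1 point per gland (blue, n = 3) or carcinoma (orange, n = 7) and a vertical bar at each mean. The groups do not overlap at any of the 24 islands, as the choice of islands required, and at the gains the carcinomas spread more than the glands.

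The islands that fell most are given in a pair of sets, by the mean of the glands. At Loss 1, 2, 3, 5, 9 and 11 the glands averaged 1.41 to 2.21, at positions of 42.5% to 64.4% between the modes. Loss 1 (chromosome 19, 15742697 to 15743018, 4 probes) had 2.01, 0.88 and 2.04 in NMG 1 to 3, and from -0.59 in tumor 3 through a median of -0.12 to 0.70 in tumor 1. It fell by 1.66 ± 0.31 (SE; limma adjusted p = 0.00798). Loss 2 (chromosome 1, 207205875 to 207206779, 5 probes) had 2.07, 1.46 and 2.19 in the glands and -0.18 to 1.18 in the carcinomas (median 0.23), a fall of 1.63 ± 0.28 (SE; limma adjusted p = 0.00669). The largest difference among the probes of the 12 losses that met the same limit was inside it: probe A_45_P00963175 (chromosome 1, 207206587 to 207206631) had 1.83, 1.53 and 1.74 in the glands and -0.84 to -0.15 in the carcinomas (median -0.35). The groups were far apart at this probe, at -2.14 ± 0.19 (SE; limma adjusted p = 0.00384).

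Loss 3 (chromosome 1, 187510308 to 187510888, 7 probes) had 2.44, 1.34 and 2.22 in the glands and 0.01 to 1.04 in the carcinomas (median 0.46), with 6 of 7 probes called lower. Loss 5 (chromosome 12, 41408896 to 41409313), Loss 9 (chromosome 1, 82409664 to 82410131) and Loss 11 (chromosome 1, 78309465 to 78310713) fell by 1.23, 1.17 and 1.15 (limma adjusted p = 0.00765, 0.00955 and 0.00504), and with all 24 arrays in the fit the call of Loss 9 was lost (limma adjusted p = 0.106). The carcinomas averaged 0.99, 0.43 and 0.27 at these islands, all above the low mode.

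The other 6 losses began at gland means of 0.49 to 1.06, at positions of 17.9% to 34.2% between the modes, and ended at -0.74 to -0.11. They were Loss 4 (chromosome 8, 75152168 to 75152880), Loss 6 (chromosome 7, 9636790 to 9636921), Loss 7 (chromosome 2, 35031343 to 35032079), Loss 8 (chromosome 2, 29450769 to 29451550), Loss 10 (chromosome 1, 118410239 to 118412461) and Loss 12 (chromosome 3, 108216399 to 108216925). Their falls ran from 1.14 to 1.34 log2 units (limma adjusted p from 0.00504 to 0.00741). At Loss 7, the glands had 0.83, 1.25 and 1.12, and the carcinomas -0.46 to 0.36 with a median of -0.22. NMG 2 had the lowest gland value at each loss of the first set and the highest at Loss 4 and Loss 7. Within NMG 2 the sets overlapped, with 1.13 and 1.25 at Loss 4 and Loss 7 and 0.88, 0.89 and 1.04 at Loss 1, 9 and 11.

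**Figure D5:**
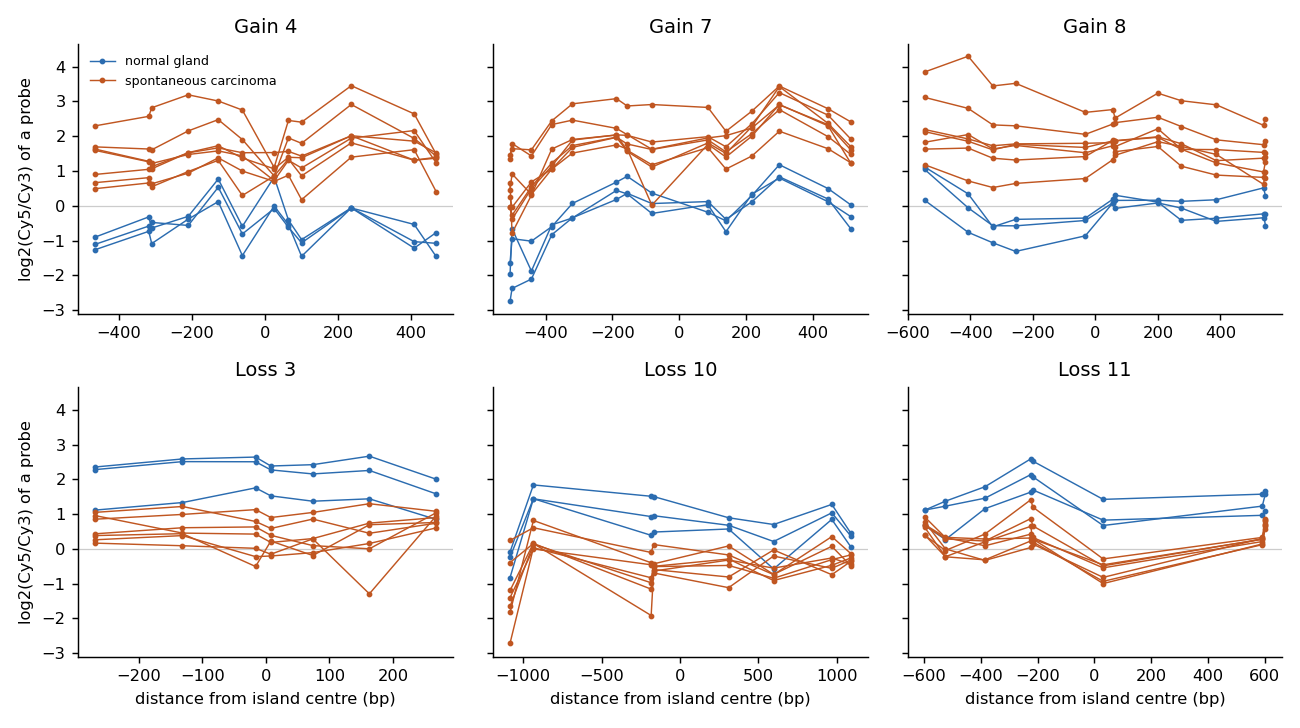
log2(Cy5/Cy3) of each probe against its distance from the island centre in bp, for 3 gains (top) and 3 losses (bottom), as 1 line per gland (blue) or carcinoma (orange). At Gain 7 the carcinomas run above the glands at 12 of 14 probes, whereas at Loss 11 the groups come together at 1 end and the probe differences range from -1.66 to -0.33.

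In Cy3, the uncaptured DNA, the 24 named islands differed by -0.26 to 0.27 log2 units between carcinomas and glands (limma adjusted p of at least 0.387; unadjusted p = 0.0157, 0.0229, 0.0369 and 0.0395 at Loss 11, Gain 12, Loss 7 and Loss 4). At Loss 11, Cy3 was higher in carcinomas by 0.27 and Cy5 lower by 0.88, where the ratio fell by 1.15. Over the named islands, the ratio differences plus the Cy3 differences give 1.84 to 2.31 for the gains and -1.68 to -0.88 for the losses in Cy5. Over all probes, 0 of 89403 passed an adjusted p of 0.05 in Cy3 by limma, and 8005 had an unadjusted p under 0.05 (8.95% of the probes tested), 4645 of them higher and 3360 lower in carcinomas.

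The carcinomas differed in how many islands they had raised. An island was counted for a tumor where it lay more than 1 log2 unit above the highest gland. Tumor 1 had 803 such islands (6.31% of all), tumor 6 had 667, tumor 5 had 518 and tumor 2 had 468. Tumors 3, 7 and 4 had 142, 133 and 101. Fewer islands lay as far below the lowest gland, from 6 in tumor 6 to 78 in tumor 7. Set against the other 2 glands in the same way, NMG 2 had 1 island above and 241 below, NMG 1 had 13 and 0, and NMG 3 had 8 and 3. NMG 2 thus often set the lowest gland value, and its part in the small counts of lowered islands was not tested. The arrays of tumors 1 and 6 also had the highest high modes (3.97 and 4.08) and those of tumors 4 and 7 the lowest (2.61 and 2.48). Tumor 5, with 518 raised islands, had a high mode at 2.72, and tumor 3, with 142, had one at 3.05. The part of the range of an array in these counts was not tested.

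The position between the modes takes out this range. On it the 12 gains averaged 65.3%, 60.9%, 43.4%, 40.4%, 62.8%, 64.0% and 49.8% in tumors 1 to 7, against 0.1%, -9.7% and -6.2% in the glands. Tumors 1, 2, 5 and 6 thus stood above tumors 3, 4 and 7 at these 12 islands on both scales. Over all islands the order was another, since the share past the midpoint was 16.4% in tumor 6, under the 16.8% of tumor 4 and the 17.1% of tumor 7. The 12 losses averaged -0.2% to 14.2% in the carcinomas and 37.7% to 42.0% in the glands, and both of these separations follow from the choice of the islands.

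The raised islands were shared in part. Of 1282 islands raised by more than 1 log2 unit in at least 1 carcinoma, 560 were raised in a single tumor, 229 in 4 or more, and 13 in all 7. Of 130 islands lowered as far in at least 1 carcinoma, 86 were lowered in a single tumor and 0 in more than 5. Tumors 1 and 6 accounted for 196 and 207 of the islands raised in a single tumor. No island was raised in 1 carcinoma and lowered in another by this measure.

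Islands called higher lay near each other. Among islands with another island within 100000 bp, 47.4% of those called higher had a neighbor also called higher, against 27.7% of all islands. For islands called lower the shares were 28.4% and 27%. Islands called higher had a mean of 4.49 neighbors in that distance, against 3.83 over all, and those called lower had 2.94, and the part of this density in the shares was not tested. Neighboring islands of a tissue are not independent, so that these shares are descriptions and carry no p.

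Of 1982 windows of 1 Mb that held an island, 1263 had no island called higher, 28 had 5 or more called higher and 14 had 5 or more called lower. The window with the most islands called higher, on chromosome 4 from 80 to 81 Mb, had 11 of 25 and holds Gain 8. Its islands averaged 0.64, 0.24 and 0.58 in NMG 1 to 3 and 0.80 to 1.73 in the carcinomas. Chromosome 7 from 141 to 142 Mb followed with 10 of 33, and chromosome 3 from 57 to 58 Mb with 9 of 20, where the glands averaged 0.42 to 1.00 and the carcinomas 1.15 to 1.98. The window of chromosome 20 from 2 to 3 Mb had 9 of 17 and holds Gain 12. On chromosome 8, from 96 to 97 Mb, all 7 islands (55 probes) were called higher. They averaged 0.09, -0.18 and -0.03 in the glands and 0.77 to 1.80 in the carcinomas. On chromosome 1, 9 of 24 islands from 249 to 250 Mb and 8 of 25 from 250 to 251 Mb were called higher, and 0 were called lower in either window. The windows were chosen for these counts. The most islands called lower in a window were 8, of 33 on chromosome 1 (208 to 209 Mb) and of 45 on chromosome 16 (18 to 19 Mb).

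The longest islands were called higher more often. Of 349 islands with 17 or more probes, 24.4% were called higher and 6.88% lower, against 8.66% and 11.6% of 3383 islands with 3 or 4 probes. The shares were 8.79% and 11.2% of 6481 islands with 5 to 8 probes, and 10.9% and 13.7% of 2511 islands with 9 to 16 probes. The number of probes also sets the error of an island's mean, and its part in these shares was not tested. The median difference, which does not depend on a call, was -0.01, -0.03, -0.03 and 0.15 from the set with the fewest probes to that with the most. A rise beyond 1 log2 unit was found in 3.99%, 3.12%, 5.02% and 7.45% of these sets.

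Differences summed over wider parts of the genome did not pass at the main setting (all 10 arrays and all autosomal probes, with median centering). By mean level, the islands were put into 4 classes of 3181. The second class, with levels from -0.38 to -0.08, was lower in carcinomas by 0.054 log2 units (exact permutation p = 0.025, adjusted over 4 classes p = 0.1), and the other classes differed by 0.052, 0.037 and 0.123 (adjusted p of at least 0.617). The signs of several classes turned with the centering. By the same permutation test, the second class passed without centering, with bright probes, with quantile normalization (-0.106, adjusted p = 0.0167) and without tumor 3 (adjusted p = 0.0476). The settings with bright probes and without tumor 3 kept the median centering. Of the 20 autosomes, 0 passed an adjusted p of 0.05 for the mean log2 ratio of their probes by the exact permutation test, and 0 had an unadjusted p under 0.05. Their differences ranged from -0.001 on chromosome 13 to 0.087 on chromosomes 1 and 14. The SD of the log2 ratios of an array was 1.36 ± 0.16 in the glands (SD, n = 3) and 1.33 ± 0.19 in the carcinomas (SD, n = 7; exact permutation p = 0.867), and none of the 5th, 25th, 75th and 95th percentiles passed (adjusted p of at least 0.271). Without centering the 25th percentile was lower in carcinomas by 0.205 (exact permutation, adjusted p = 0.0417).

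Set beside the irradiated carcinomas, the spontaneous ones did not stand apart at any single island. With limma on the 21 tumors, 0 of 12724 islands differed between Spontaneous and the 14 irradiated carcinomas (smallest adjusted p = 0.555), and 794 had an unadjusted p under 0.05 (6.24% of the islands tested). With scan day as a block the smallest adjusted p was 0.493. Of the irradiated carcinomas, all 14 lay above the 3 glands at 7 of the 12 gains, and from 11 to 13 at the other 5. These islands were chosen on the same glands, so that the counts are descriptions and no independent support. At Gain 2, IR-3W averaged 1.35 ± 0.92 and IR-7W 1.96 ± 0.41 (SD, n = 7 each), and Spontaneous 1.71 ± 0.84 (SD, n = 7). Gain 1 was less even, at -0.32 ± 0.57 for IR-3W, 1.02 ± 1.25 for IR-7W and 1.35 ± 1.26 for Spontaneous.

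At the losses, all 14 irradiated carcinomas lay below the 3 glands at Loss 4, 6, 7, 8, 10 and 12, and 8 to 13 did at the others. The grouping of the losses was made after the values had been seen, and no difference between the groups of islands was tested. IR-3W tumor 1 was the highest irradiated tumor at each of Loss 1, 2, 3, 5, 9 and 11 (1.85 to 4.08). Its array also had the widest range, reaching a mean of 5.78 in the middle of islands in the high mode of the glands, where no other array passed 3.94. Loss 1 averaged 2.14 ± 1.29 for IR-3W, 0.52 ± 0.79 for IR-7W and -0.01 ± 0.44 for Spontaneous (SD, n = 7 each). The spontaneous carcinomas were lower than the irradiated ones there by 1.35 ± 0.49 (SE; limma unadjusted p = 0.0121, adjusted p = 0.555), and at Loss 6 by 0.41 ± 0.14 (SE; limma unadjusted p = 0.00795, adjusted p = 0.555), so that neither passed the test over all islands.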

How the data were processed

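Spot intensity values were deposited per array. Per the file headers, the authors made them with Agilent Feature Extraction 10.7.3.1, with background subtraction and a linear dye normalization. The series matrix deposited by the authors holds log2 ratios of 91897 probes, tried as an alternative. From the processed signals, log2 ratios were taken and each array was centered on its median, without outlier spots (1 to 32 per array here). Islands are means over at least 3 autosomal probes with gaps of at most 1000 bp. Differences were fitted by limma 3.58.1 (R 4.3.3) on the 10 arrays, with Benjamini-Hochberg adjustment over all features (threshold 0.05), and tested on simulated data. For values per array, exact permutation tests (two-sided) were run in Python 3.11.15. The study's own score was not rebuilt.

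Comparisons, members and lists were chosen with earlier results of these data known. The named islands are the 12 largest increases and 12 largest decreases among called islands without overlap between the groups and with at least 50% of the probes well above background in Cy3 on all 10 arrays and in Cy5 on an array of each group, plus, for each direction, the probe inside them that differed most and was itself well above background in this way. The modes, midpoint, central and outermost probes, windows and counts per tumor were chosen after the values had been seen. Gene lists and cell type markers had been planned but were not used, since the files do not pair probes with genes. Alternatives were other centerings, scalings, background corrections, probe filters, island definitions, blocks, tests and each array left out in turn. X-linked probes and the study's other assays were not analysed here.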

Additional observations from a re-analysis of the deposited data

Results flagged for a closer look

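Of 75 values looked at for a single carcinoma far from the other 6, 5 passed Dixon's criterion, and chance flags about 1 in 20. All 5 were medians of the unenriched Cy3 signal over a chromosome, in log2 units against the gland mean. Tumor 3 had 0.083 on chromosome 1, where the other 6 lay between -0.016 and -0.001. It also had -0.03 on chromosome 2 (others 0.004 to 0.015) and -0.052 on chromosome 17 (others -0.015 to 0.012). Tumor 5 had 0.107 on chromosome 4 (others -0.069 to -0.041) and -0.023 on chromosome 5 (others -0.006 to 0.006). On chromosome 4 the glands themselves ran from -0.072 to 0.138, so that tumor 5 lay inside their range. The gland mean there includes the raised value of NMG 1.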

How the results depend on the processing

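The 2706 island calls and 18783 probe calls kept within 1.5 times their number under most settings. Exceptions for islands were no centering (4205), a common interquartile range (4260), scan day as a block (0), slide as a block (37), the replicate block (0), leaving out NMG 2 (965) or NMG 3 (580), tumors 1, 2, 3 and 7 only (1466, chosen after seeing the data), the methods' t-test at its unadjusted threshold (849) and limma at the same threshold (930, chosen after seeing the data). For probes they were normexp background (9744, 1662 of them higher), scan day (195), slide (0) and the replicate number (0) as a block, leaving out NMG 2 (6744) or NMG 3 (4831), the methods' t-test (6027) and limma (6983) at that unadjusted threshold. Normexp called 323 islands higher and 1540 lower, quantile normalization 1512 and 2441. Leaving out 1 array gave 580 (NMG 3) to 3066 islands and 4831 to 21655 probes. Shared by all these fits and the full one were 203 islands higher and 305 lower. Under 7 centerings, scalings and background corrections 164 islands were called higher in each and 275 lower. On the outermost probes 1069 of 7166 islands were called, 990 of them higher (on the central probes 2285, 576 of them higher).

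The replicate numbers did not pair the samples (correlations of same-numbered deviations 0.215, -0.244 and -0.187). With the replicate block on numbers 1 to 3, 0 probes and 0 islands were called. In Cy3, scan day as a block gave 7 probes, leaving out 1 array 0 to 1, and an unadjusted p under 0.05 gave 8005. Against irradiated tumors, 794 islands had such a p, and leaving out 1 spontaneous tumor gave 0 called (no irradiated tumor was left out).

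Without centering, the differences of the 5th, 25th and 75th percentile became -0.111, -0.205 and -0.0112, and those of the 4 classes -0.157, -0.263, -0.172 and -0.087, the 25th percentile and the first 3 classes past the threshold. With bright probes the 25th percentile had -0.0585 and classes 1 to 3 had -0.0303, -0.11 (past the threshold) and -0.0046. Centered on the mode, class 1 had 0.26 (past the threshold) and class 2 had 0.16. Quantile normalization gave -0.106 and -0.0538 for classes 2 and 3, both past the threshold, and classes by the irradiated tumors gave -0.0446 for class 1. Leaving out 1 array gave -0.11 to 0.0454 for the SD, -0.0212 to 0.0233 for the 25th percentile, -0.0706 to -0.0386 for class 2 (past the threshold without tumor 3) and -0.10 to 0.25 for class 4. The cause was not tested. No named island changed direction. Their 24 calls were lost under the scan-day and replicate blocks, 22 under the slide block, 9 without NMG 3, 5 with normexp and 1 (Loss 9) with all 24 arrays in the fit. Sizes moved by over 1.5 times with scan day for Gain 1 (2.26 to 0.28), Gain 8 (1.99 to 1.14) and Loss 4, 7 and 12 (to -0.70, -0.70 and -0.75), and with slide for Gain 1 (0.36) and Loss 4, 9 and 11 (-0.83, -0.56 and -0.70). Gain 2 (2.23) and Loss 1 (-2.23) were as large with scan day. With normexp all 12 gains were 0.73 to 1.07, and Loss 1, 6, 10 and 12 were -0.97, -0.75, -0.75 and -0.62. Loss 2 and Loss 3 moved less with normexp, to -1.45 and -1.20.

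The central-minus-outermost difference stayed between -0.48 and -0.36, and that in islands past the midpoint between 3.68 and 4.65 percentage points, with 1 array left out.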

Other observations

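The Cy3 signal, which holds DNA that was not enriched, was also set against the median of all 24 arrays. On chromosome 4 (4863 probes), NMG 1 had a median of 0.14, and its medians in 10 windows of 20 Mb ran from 0.12 to 0.16. The enriched DNA of the same gland in Cy5 had 0.16. Spontaneous tumor 5 had 0.11 in Cy3 (0.08 to 0.14 over the windows) and 0.05 in Cy5, and IR-3W tumors 2 and 3 had 0.20 and 0.23 in Cy3 and 0.10 and 0.12 in Cy5. The other 20 arrays lay between -0.06 and 0.05 in Cy3. On chromosome 1 (11243 probes), tumor 3 had 0.07 in Cy3, with 0.04 to 0.10 over 14 windows, and 0.05 in Cy5, while the medians of the other 23 arrays lay between -0.01 and 0.03 in Cy3. By window, spontaneous tumors 1, 4 and 7 reached higher than tumor 3. Their windows ran from 0.00 to 0.12, from -0.01 to 0.14 and from -0.03 to 0.11. Over the other 18 autosomes the 10 arrays lay between -0.03 and 0.06. That an array labelled as normal gland had a raised signal along all of chromosome 4 in both channels was not tested further. Whether the label of this array holds was not tested either. NMG 1 correlated more with the other glands than with the spontaneous carcinomas, but more with each of these carcinomas than NMG 2 and NMG 3 did. The excess of its central probes was 0.46, the lowest of the glands (0.60 and 0.70 in NMG 2 and NMG 3). It was 0.11 to 0.24 in the spontaneous carcinomas and 0.44 in IR-3W tumor 1. Without NMG 1, 1903 islands were called (901 higher, 1002 lower).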
